A study of Mus musculus with 12 samples.

Results

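Mitogen-activated protein kinases (MAP kinases) are the last enzymes of 3-step phosphorylation cascades that carry signals from growth factors and from stress into the cell. The 8 genes described here were taken by symbol and are 8 of the 54735 gene symbols listed for every library: Mapk3 and Mapk7 of the ERK branch, Mapk8, Mapk9 and Mapk10 of the JNK branch, and Mapk11, Mapk12 and Mapk14 of the p38 branch. All 8 had a mean of at least 1 TPM (an abundance corrected for gene length, with a fixed sum per library), and so all 8 were among the 11764 genes tested. The rule is a list of symbols and applies no threshold to the measured values, although earlier results of these data were known when the genes were listed. The family was listed as one in which many genes carry a minor intron.

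The libraries were made from total RNA of the dorsal telencephalon (pallium, from which the cortex develops) of C57/Bl6 mouse embryos at E13.5. Control embryos had the genotype Rnu11wt/flx::Trp53wt/wt::Emx1-Cre+, with 1 floxed copy of Rnu11. Conditional knockout embryos (cKO) were Rnu11flx/flx::Trp53wt/wt::Emx1-Cre+, and double knockout embryos (dKO) were Rnu11flx/flx::Trp53flx/flx::Emx1-Cre+. There were 4 embryos per group. Emx1-Cre was present in every one of the 12 embryos, so controls had also been exposed to Cre and could lose their floxed copy of Rnu11. Emx1-Cre acts in pallial progenitor cells and their descendants, so blood vessels, microglia and interneurons that arrive from the ventral forebrain keep their floxed alleles. Rnu11 is the gene for the U11 small nuclear RNA, a part of the minor spliceosome, and Trp53 is the gene for p53. The comparisons ask how the genes responded to loss of U11, and how they stood when p53 was removed as well.

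In a MAP kinase cascade a kinase kinase kinase activates a dual-specificity kinase kinase, which in turn phosphorylates the MAP kinase on a threonine and a tyrosine. ERK kinases respond mainly to growth factors, while JNK and p38 kinases respond mainly to stress and cytokines, and JNK kinases also act on the cytoskeleton of young neurons. Many MAP kinase genes contain a minor intron, a rare class of intron with its own splice site sequences, which is removed by the minor spliceosome and not by the common one. Messenger RNA abundance, the quantity measured here, says nothing of kinase activity, which is set by phosphorylation, and it does not separate spliced from unspliced transcripts.

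The intron starts that could be read show which of the genes carry the start sequence of a minor intron. U11 pairs with the first bases of such introns, and the 2 forms searched were ATATCCTT and GTATCCTT, on the transcribed strand only, as an exact match to the first 8 intron bases. The letters came from GENCODE M21 transcripts (build GRCm38), and an intron start was readable only where another transcript of the same gene keeps those bases in an exon. Of the 104 annotated intron starts of the 8 genes, 32 were readable. GTATCCTT was found at 6 of the 32 (18.8%), in 5 genes, and ATATCCTT at none. In all protein-coding genes, one or the other form was found at 158 of 32286 readable starts (0.489%). The family was listed for its minor introns, so a larger share than in all genes was built into the choice and is not a result. The 6 starts follow, each with the last 10 bases of the exon and the first 20 bases of the intron, 5′ to 3′ on the gene's strand. Capitals mark the 8 bases searched.

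Mapk3, ERK branch, intron 2 of 8, chr7:126760904-126760933, plus strand: tgagagatgtGTATCCTTcaccttagccac

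Mapk8, JNK branch, intron 7 of 11, chr14:33390222-33390251, minus strand: ggtacagatcGTATCCTTatctttggccta

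Mapk8, intron 7 of 11 after an alternative exon, chr14:33390653-33390682, minus strand: ggaagggactGTATCCTTgtgctgctgcag

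Mapk9, JNK branch, intron 7 of 11, chr11:49874326-49874355, plus strand: ggtactgaccGTATCCTTccccagaacctt

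Mapk11, p38 branch, intron 8 of 11, chr15:89145355-89145384, minus strand: ggaaacgactGTATCCTTggggagcagggt

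Mapk12, p38 branch, intron 8 of 11, chr15:89133059-89133088, minus strand: ggcaatgaccGTATCCTTctatgtagagca

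All 6 introns lie between coding exons. In Mapk8 the 2 starts follow a pair of alternative exons, so either form of the transcript has one at the same place in the intron order. For Mapk7, Mapk10 and Mapk14 no exact match was read, with 11 of 13, 2 of 19 and 2 of 15 starts readable, and the starts that were not readable may hold one. With 1 mismatch after the first 2 bases allowed, the genes' count rose to 7 of 32 (21.9%) and that of all protein-coding genes to 308 of 32286 (0.954%). The added start is in Mapk7 and belongs to noncoding transcripts only. A match is a description of the letters and not a measurement of splicing.

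On the same build, Mapk11 (chr15:89142486-89149628) and Mapk12 (chr15:89130584-89140703) are neighbours on the minus strand, 1782 bases apart. The others lie apart: Mapk3 at chr7:126759601-126765819 and Mapk9 at chr11:49846751-49886421 on the plus strand, and Mapk14 at chr17:28691329-28748406, also on the plus strand. Mapk7 at chr11:61488812-61494406, Mapk8 at chr14:33377898-33447158 and Mapk10 at chr5:102907948-103211334 are on the minus strand.

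Several facts about the libraries touch every value below. TPM carries no information on sequencing depth, so the depth is unknown and neither counting intervals nor floors are given. Rnu11 served as a check of the labels and ranged over 521 to 724 TPM for control embryos, 115 to 159 for cKO and 142 to 199 for dKO. After the scaling described next, Rnu11 was higher in dKO (149 to 221) than in cKO (107 to 148), by 0.51 on the log2 scale (limma adjusted p = 0.0463), where deposited TPM gave 0.18 (limma adjusted p = 0.337). The part of this difference in other differences between the mutants was not tested. Trp53 stood at 2.63 to 6.37, 3.92 to 4.83 and 0.92 to 1.49 TPM in the same order. As deposited, the median gene stood 0.25 higher on the log2(TPM + 1) scale in cKO than in control and 0.26 lower in dKO than in cKO, while dKO and control differed by 0.01. Tests were therefore made on scaled TPM, in which each library is multiplied by 1 factor (0.763 to 1.14) that brings its typical gene to a common level, so a change is relative to the typical gene. Values per embryo are given as deposited, and for the 8 genes the test on deposited TPM is given where its call differs. All log2 changes are differences of log2(TPM + 1), a scale on which low genes show too small a change. Genes were called at an adjusted p under 0.05 in limma, with Benjamini-Hochberg adjustment over all 11764 genes. The labels call the embryos replicates without naming litters. The p-values take the embryos as independent, and whether some of them share a litter is unknown. In such tissue samples, fewer cells of a type and less RNA per cell cannot be told apart.

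After loss of U11, transcripts of the JNK kinases Mapk8 and Mapk9 rose, the p38 kinase Mapk11 fell, and the ERK kinases Mapk3 and Mapk7 were not called. In cKO against control 2 of the 8 genes were called higher (Mapk8 and Mapk9) and 1 lower (Mapk11), where 7.22% of all tested genes were called (3.96% higher, 3.26% lower). In dKO against control none was higher and 2 were lower (Mapk11 and Mapk12), with a background of 9.00% (3.95% higher, 5.05% lower). In dKO against cKO none was higher and 2 were lower (Mapk10 and Mapk11), with a background of 6.94% (2.72% higher, 4.22% lower). The 3 comparisons share groups, so their counts are not independent. The genes' median log2 change was -0.01, -0.25 and -0.23 in the 3 comparisons, beside 0.00, 0.00 and 0.01 for all tested genes. On TPM as deposited, 3 of the 8 were called higher and 1 lower in cKO, with 35.4% of all genes called (34.3% higher, 1.09% lower). In dKO against control 1 was lower, with 5.19% called (1.79% higher, 3.40% lower). In dKO against cKO 5 were lower, with 39.4% called (0.612% higher, 38.8% lower).

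**Figure D1:**
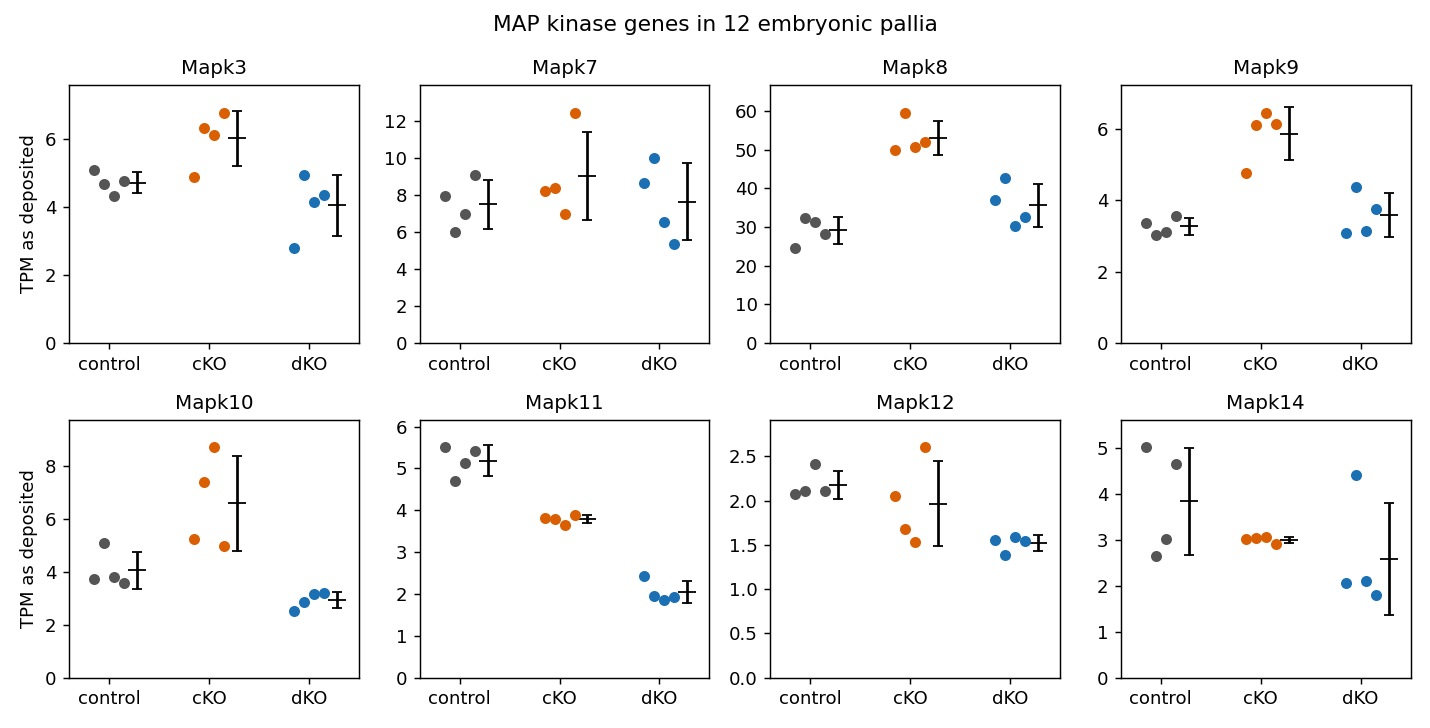
Deposited TPM of the 8 MAP kinase genes (vertical axis, starting at 0) in each of 4 control, 4 cKO and 4 dKO embryos. Points are embryos, and the bar beside each group is its mean with 1 SD. Mapk11 steps down with no overlap between any of the groups, while all 4 cKO embryos lie above the control embryos for Mapk8 and Mapk9.

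Mapk11 encodes p38 beta, a kinase of the stress branch, and carries the readable minor intron start of intron 8 shown above. Its deposited levels were 5.51, 4.70, 5.14 and 5.41 TPM in the control embryos, 3.82, 3.80, 3.65 and 3.90 in cKO, and 2.43, 1.94, 1.87 and 1.93 in dKO. Every cKO embryo lay below every control embryo, and every dKO embryo below every cKO embryo. The 3 group means were 5.19 ± 0.361, 3.79 ± 0.103 and 2.04 ± 0.26 TPM (SD, n = 4 each). In scaled TPM the cKO mean was 59.2% and the dKO mean 40.1% of control. The log2 change was -0.61 (SE 0.0751, limma adjusted p = 0.00039) in cKO and -1.03 (limma adjusted p = 1.18e-05) in dKO. Between the mutants, dKO stood a further 0.41 below cKO on the log2 scale (change of -0.41, limma adjusted p = 0.00888), with a 95% interval from -0.58 to -0.25. Mapk11 was the gene among the 8 that was called in all 3 comparisons. It was called in each of them under all 21 alternative settings that tested it, while the minimum of 5 TPM on the mean left it out. Its adjusted p was at most 0.00485 in cKO, 0.000861 in dKO and 0.0401 between the mutants under those settings.

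Mapk12 encodes p38 gamma, best known from muscle, and had the lowest level of the 8 genes. Its values were 2.08, 2.11, 2.42 and 2.11 TPM in the control embryos, 2.05, 1.68, 1.53 and 2.603 in cKO, and 1.56, 1.39, 1.59 and 1.55 in dKO. The dKO embryos all lay below the control embryos, while the cKO embryos spread across the control range as deposited. After scaling, the cKO embryos (1.41 to 1.98) also lay below control (2.11 to 2.57). Mapk12 was called lower in dKO, by -0.33 on the log2 scale (SE 0.0893, limma adjusted p = 0.0409), and not in cKO (-0.32, limma adjusted p = 0.0519). The difference between the mutants was -0.01, with an interval from -0.20 to 0.18. The call in dKO is a marginal one: it held under 8 of 21 alternatives (adjusted p 0.0387 to 0.108), and was lost without any 1 of control 2, 3 or 4 or of the 4 dKO embryos, and on TPM as deposited (adjusted p = 0.0881).

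Mapk14 encodes p38 alpha, the most widely expressed p38 kinase in most tissues and the usual target of p38 inhibitors. Its values were 5.01, 2.65, 3.02 and 4.65 TPM in the control embryos, 3.01, 3.03, 3.06 and 2.91 in cKO, and 2.05, 4.41, 2.09 and 1.80 in dKO. The control embryos fell into a high and a low pair, and dKO embryo 2 stood far above the other dKO embryos. The cKO embryos had an SD of 0.0636 TPM, a narrower spread than the 1.17 of control and the 1.22 of dKO. After scaling, all cKO embryos lay below all control embryos. Mapk14 was called in none of the comparisons. The log2 change was -0.47 (95% interval -0.89 to -0.04, limma adjusted p = 0.176) in cKO and -0.44 (-0.87 to -0.02, limma adjusted p = 0.184) in dKO. Without dKO embryo 2, the dKO change was -0.65 with a limma adjusted p of 0.0233. This was the only 1 of 21 alternatives in which Mapk14 was called in dKO (limma adjusted p 0.0233 to 0.366). In cKO it was likewise called under 1 of 21, with sample weights (limma adjusted p = 0.0378). The p38 members Mapk11, Mapk12 and Mapk14 all had negative changes against control, though those of Mapk14, and of Mapk12 in cKO, were not called. Only 2 of 15 intron starts of Mapk14 were readable, so it may hold the start that Mapk11 and Mapk12 share.

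Mapk8 encodes JNK1 and was the most abundant of the 8 genes in every embryo. Its levels were 24.6, 32.3, 31.3 and 28.2 TPM in the control embryos, 49.9, 59.6, 50.6 and 52.02 in cKO, and 36.9, 42.6, 30.2 and 32.6 in dKO. As deposited, all cKO embryos lay above all control and all dKO embryos, and dKO overlapped control. The means were 29.1 ± 3.48, 53.03 ± 4.46 and 35.6 ± 5.46 TPM (SD, n = 4 each). Part of this step is the shift of the typical gene. In scaled TPM the cKO mean was 146% and the dKO mean 123% of control. The log2 change in cKO was 0.54 (SE 0.13, limma adjusted p = 0.0268) after scaling and 0.85 (limma adjusted p = 0.000702) as deposited. In dKO it was 0.30 (limma adjusted p = 0.18), and between the mutants -0.25 after scaling (limma adjusted p = 0.27) and -0.57 as deposited (limma adjusted p = 0.0043). So a lower Mapk8 level in dKO than in cKO was called as deposited and not relative to the typical gene. The call in cKO held under 16 of 22 alternatives, with adjusted p from 0.000702 to 0.0836. It was lost with no filter on low values (adjusted p = 0.0576) and without any 1 of control 1, control 4 or cKO 1, 2 or 3, and the log2 change stayed at or above 0.44 in every one of them.

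Mapk9 encodes JNK2. Its values were 3.36, 3.03, 3.12 and 3.57 TPM in the control embryos, 4.77, 6.11, 6.46 and 6.15 in cKO, and 3.07, 4.38, 3.15 and 3.75 in dKO. As deposited, every cKO embryo was above every other embryo, and the dKO embryos overlapped control. After scaling, the cKO embryos still lay above control, but dKO embryo 2 (4.59) lay above cKO embryo 1 (4.44). The mean in cKO was 145% of control in scaled TPM. Mapk9 was called higher in cKO, by 0.43 on the log2 scale (SE 0.0973, limma adjusted p = 0.0206). Its change was 0.12 in dKO (limma adjusted p = 0.509) and -0.31 between the mutants (95% interval -0.52 to -0.10, limma adjusted p = 0.0756), which on TPM as deposited was -0.59 and called (limma adjusted p = 0.00213). The call in cKO held under 18 of 21 alternatives and was lost without control 3, cKO 2 or cKO 3 (adjusted p up to 0.066).

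Mapk10 encodes JNK3, the JNK kinase of neurons. Its values were 3.70, 5.10, 3.81 and 3.56 TPM in the control embryos, 5.22, 7.40, 8.69 and 4.97 in cKO, and 2.53, 2.87, 3.14 and 3.20 in dKO. The dKO embryos lay below all others, and the cKO embryos spread widely, with 1 control embryo reaching into their range. The log2 change in cKO was 0.31 (95% interval -0.08 to 0.69, limma adjusted p = 0.336) and was called only as deposited (0.57, limma adjusted p = 0.0152). In dKO it was -0.34 (limma adjusted p = 0.261). Between the mutants Mapk10 fell by 0.65 on the log2 scale (SE 0.176, limma adjusted p = 0.0476). That call held under 6 of 21 alternatives (adjusted p 0.00129 to 0.132). It was lost in 10 of the 12 fits that left out 1 embryo, and held without control 2 or cKO 4. The summed scaled TPM of 10 neuron markers ran from 255 to 318 in control, 279 to 357 in cKO and 199 to 286 in dKO. None of the 10 had a mean under 1 TPM. In dKO against cKO, 4 of the 10 were called lower (Tubb3, Neurod2, Snap25 and Gap43), beside 4.22% of all tested genes. The part that the number of neurons has in the Mapk10 values was not tested.

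Mapk3 encodes ERK1, and with a readable minor intron start in intron 2 it is the one of the 5 genes with such a start that was called in no comparison. Its values were 5.07, 4.69, 4.34 and 4.76 TPM in the control embryos, 4.89, 6.31, 6.11 and 6.78 in cKO, and 2.79, 4.93, 4.13 and 4.35 in dKO. The scaled ranges of the 3 groups overlapped. The log2 change was 0.03 in cKO (95% interval -0.22 to 0.28, limma adjusted p = 0.917), -0.18 in dKO (limma adjusted p = 0.362) and -0.21 between the mutants (limma adjusted p = 0.28). The last was called as deposited (-0.49, limma adjusted p = 0.0124).

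Mapk7 encodes ERK5, a large kinase with its own activator, Map2k5. Its values were 7.94, 6.003, 6.96 and 9.11 TPM in the control embryos, 8.24, 8.38, 6.996 and 12.5 in cKO, and 8.65, 10.01, 6.55 and 5.37 in dKO. The 3 groups overlapped throughout. The log2 change in cKO was -0.05 after scaling and 0.22 as deposited, so its direction rested on the scaling, and neither was called. The scaled 95% intervals ran from -0.41 to 0.30 in cKO and from -0.33 to 0.38 in dKO.

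**Figure D2:**
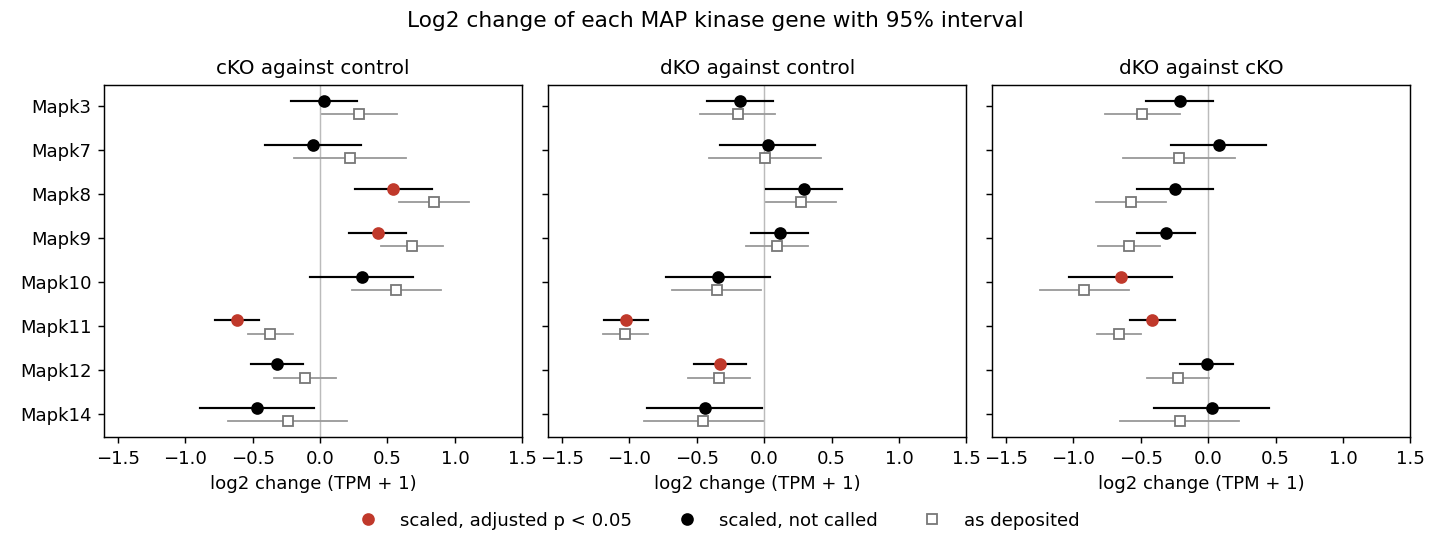
Change of each MAP kinase gene on the log2(TPM + 1) scale (horizontal axis) in the 3 comparisons, with 95% intervals. Filled circles are scaled TPM, in red where the adjusted p was under 0.05, and open squares are TPM as deposited. Mapk11 lies left of 0 in every panel, and the deposited values sit to the right of the scaled ones in cKO against control and to their left in dKO against cKO.

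Counts of genes whose groups do not overlap do not need the limma model. In scaled TPM, 2 of the 8 genes had every cKO embryo above every control embryo (Mapk8 and Mapk9) and 3 had every one below (Mapk11, Mapk12 and Mapk14), where 17.5% of all tested genes were separated (9.33% higher, 8.15% lower). In dKO against control, 3 of the 8 were separated, all lower (Mapk10, Mapk11 and Mapk12), with a background of 14.1% (6.83% higher, 7.28% lower). In dKO against cKO, 2 were separated, both lower (Mapk10 and Mapk11), with a background of 15.5% (7.91% higher, 7.57% lower).

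The order of the levels also differed between groups. In control the order was Mapk8, Mapk7, Mapk11, Mapk3, Mapk10, Mapk14, Mapk9 and Mapk12, from high to low in TPM. The embryo ranges of Mapk8 and Mapk7, of Mapk7 and Mapk11, and of Mapk9 and Mapk12 did not overlap, while each neighbouring pair from Mapk11 to Mapk9 did. In cKO, Mapk11 stood sixth, below Mapk10, Mapk3 and Mapk9, and its range was apart from that of Mapk9 above it and Mapk14 below it. In dKO it stood seventh, overlapping Mapk14. Mapk8 was first and Mapk12 last in all 3 groups.

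Shares within the family give a view that no scaling of a library can move. Each gene's share is its TPM over the summed TPM of the 8 genes in the same embryo. Mapk8 made up 48.6% ± 4.95 of the sum (SD, n = 4) for control, 59.4% ± 2.42 for cKO and 59.3% ± 1.79 for dKO. Mapk11 made up 8.68% ± 0.76, 4.26% ± 0.30 and 3.45% ± 0.57. By branch, the JNK genes took 55.3% to 66.8% of the sum in control embryos, 68.8% to 75.9% in cKO and 68.7% to 72.5% in dKO, with no overlap between control and either mutant. The p38 genes took 15.6% to 22.0%, 8.84% to 10.8% and 9.67% to 10.7%, again with control apart from both mutants. The 2 mutants overlapped each other in both branches.

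The share of Mapk8 and of Mapk11 separated control from each mutant without overlap, as did that of Mapk12, and that of Mapk14 separated control from cKO. Each of these 7 differences gave p = 0.0286 in the exact two-sided permutation test, the smallest that 70 assignments of 4 against 4 embryos allow. After Benjamini-Hochberg adjustment over 24 tests each was 0.098, so 0 of the 24 shares passed 0.05, and the design could pass it only with more shares at the smallest p. Between dKO and cKO, Mapk8 had an exact permutation p of 0.971, against a p of 0.0571 (0.137 adjusted) for Mapk11. The shares of 1 embryo sum to 100%, so a rise of Mapk8 lowers the shares of the others.

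**Figure D3:**
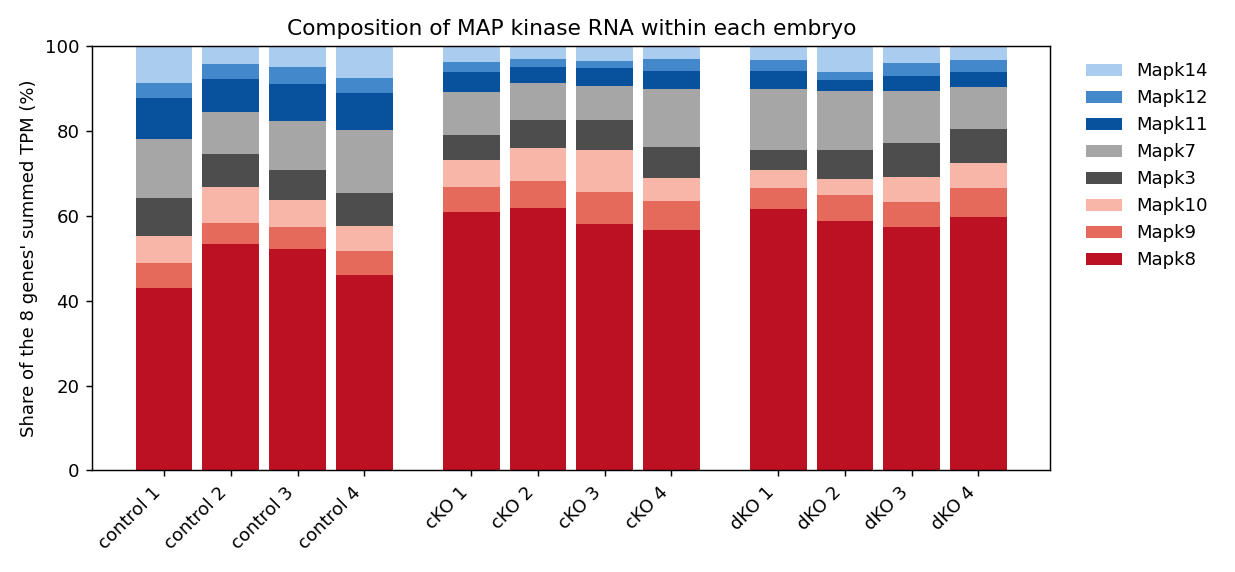
Share of each MAP kinase gene in the summed TPM of the 8 genes (vertical axis, percent) for each of the 12 embryos, 1 stacked bar per embryo. Red shades are JNK genes, grey shades ERK genes and blue shades p38 genes. The blue part spans 15.6% to 22.0% in control and at most 10.8% in the mutants.

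The genes with a readable minor intron start were also set beside other genes with one. This list, drawn from the transcript sequences after the values had been seen, holds 144 genes apart from the MAP kinases, of which 120 were tested. In cKO against control, 11 were called higher (9.17%) and 18 lower (15%), beside 3.96% and 3.26% of all tested genes. In dKO against control, 8 were called higher (6.67%) and 27 lower (22.5%), beside 3.95% and 5.05%. Between the mutants 1 was higher and 6 lower (5%), beside 2.72% and 4.22%. Of the 5 MAP kinase genes with the start, 2 were called higher in cKO (Mapk8 and Mapk9) and 1 lower (Mapk11), so these genes had calls in both directions, as did the other genes with the start. In dKO, 2 of the 5 were lower (Mapk11 and Mapk12). Of the 3 with no start read (Mapk7, Mapk10 and Mapk14), none was called against control and 1 (Mapk10) was lower in dKO than in cKO. Only 2 of 19 starts of Mapk10 and 2 of 15 of Mapk14 were readable, so these genes may have the start as well. No test compared these lists.

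Of 91 other genes of the cascades, their regulators and their targets, 67 were tested. In cKO 4 were called higher and 3 lower (10.4%), with a median log2 change of 0.07. In dKO against control 2 were called, both lower (2.99%), and in dKO against cKO 1 was higher and 2 lower (4.48%). Genes that are not reported here, called ones among them, were left out of these counts, so the percentages cannot be set against those of all tested genes. None of the 6 tested MAP kinase kinases, the 7 scaffolds, the 3 other MAP kinases or the 4 cytoskeletal substrates of JNK was called in any of the 3 comparisons on scaled TPM. The 7 tested ERK response genes had a median log2 change of 0.25 in cKO on scaled TPM, and 1 of them (Dusp6) was called. On TPM as deposited the lists had many more calls. In cKO against control, all 4 cytoskeletal substrates of JNK, 2 of 6 MAP kinase kinases, 2 of 7 scaffolds, 7 of 14 kinase kinase kinases, 4 of 10 substrate kinases and 5 of 10 transcription factor substrates were then called higher, and none of these was lower. So were 6 of 7 ERK response genes and 2 of 7 phosphatases, again with none lower. In dKO against cKO, 3 cytoskeletal substrates, 4 kinase kinases, 3 scaffolds, 8 kinase kinase kinases, 4 substrate kinases, 6 transcription factor substrates and 1 of the 3 other MAP kinases were called lower, and none was higher. The same held for 5 ERK response genes and 2 phosphatases. Those calls go in the direction of the shift of the typical gene, and 34.3% and 38.8% of all tested genes were called in the same directions.

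Among the 14 tested kinase kinase kinases, Map3k20 was called. Map3k20 encodes ZAK, a kinase kinase kinase activated by stalled ribosomes that acts above JNK and p38. It averaged 0.673 ± 0.145 TPM (SD, n = 4) for control, 2.89 ± 0.419 for cKO and 0.671 ± 0.246 for dKO. It thus passed the filter of 1 TPM on the mean only through cKO, the group where it is high. Map3k20 rose in cKO by 1.03 on the log2 scale (limma adjusted p = 0.000812), had a change of 0.00 in dKO, and was lower in dKO than in cKO (-1.03, limma adjusted p = 0.0019).

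Of the 10 tested kinases that MAP kinases activate, 3 were called in at least 1 comparison. Mapkapk3, a substrate of p38, averaged 0.389 ± 0.157 TPM (SD, n = 4) for control, 2.83 ± 0.339 for cKO and 0.40 ± 0.159 for dKO, and it too passed the filter only through cKO. Its log2 change was 1.28 in cKO (limma adjusted p = 4.84e-05), 0.02 in dKO (limma adjusted p = 0.947) and -1.26 between the mutants (limma adjusted p = 0.000114). Mapkapk3 and Map3k20 kept their calls in both comparisons under all 21 alternatives that tested them, including the one with no filter on low values. The minimum of 5 TPM on the mean left both genes out. Rps6ka6, an ERK-activated kinase, was lower in cKO (-0.40, limma adjusted p = 0.0241), and Rps6ka5, which ERK and p38 activate, was lower in dKO than in control (-0.33, limma adjusted p = 0.0434). Both of those calls were lost as deposited (adjusted p 0.446 and 0.0552). The call of Rps6ka6 was also lost without control 3 or 4 or cKO 1, 2 or 3, and that of Rps6ka5 without any embryo but control 1, cKO 2, cKO 4 or dKO 2. Between the mutants Rps6ka5 had a change of -0.33 (limma adjusted p = 0.0506), which was -0.59 and called as deposited (limma adjusted p = 0.00106).

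Of the 7 tested phosphatases that switch MAP kinases off, Dusp16, which acts on JNK and p38, and Dusp6, which acts on ERK, were called in opposite directions in cKO. Dusp16 averaged 5.06 ± 0.433 TPM (SD, n = 4) for control, 3.93 ± 0.694 for cKO and 4.68 ± 0.844 for dKO. Its log2 change was -0.56 in cKO (limma adjusted p = 0.00481) and 0.47 in dKO against cKO (limma adjusted p = 0.0175). Both were lost as deposited (adjusted p 0.0672 and 0.195), and the second also without cKO 1 or cKO 2. Dusp6, whose transcript is itself induced by ERK signalling, had a change of 0.43 in cKO (limma adjusted p = 0.0463), a call that held in 5 of the 12 fits that left out 1 embryo (control 1 or 2, or dKO 1, 2 or 4). Of the 10 tested transcription factor substrates, Mef2c, a target of Mapk7 and p38, was higher in cKO (0.63, limma adjusted p = 0.0409). Between the mutants its change was -0.59 (limma adjusted p = 0.0531), and -0.86 and called as deposited (limma adjusted p = 0.0015). Jun, the factor after which JNK is named, was lower in cKO (-0.46, limma adjusted p = 0.0411) and in dKO (-0.48, limma adjusted p = 0.0317). The calls of Mef2c and Jun against control held under 11, 11 and 13 of 21, 22 and 22 alternatives, and those of Jun were lost as deposited (adjusted p 0.348 and 0.0852). With 1 embryo left out, the call of Mef2c held without control 2, cKO 4, dKO 1 or dKO 2, that of Jun in cKO without control 2 or any dKO embryo, and that of Jun in dKO without control 2, dKO 1, dKO 2 or any cKO embryo.

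**Figure D4:**
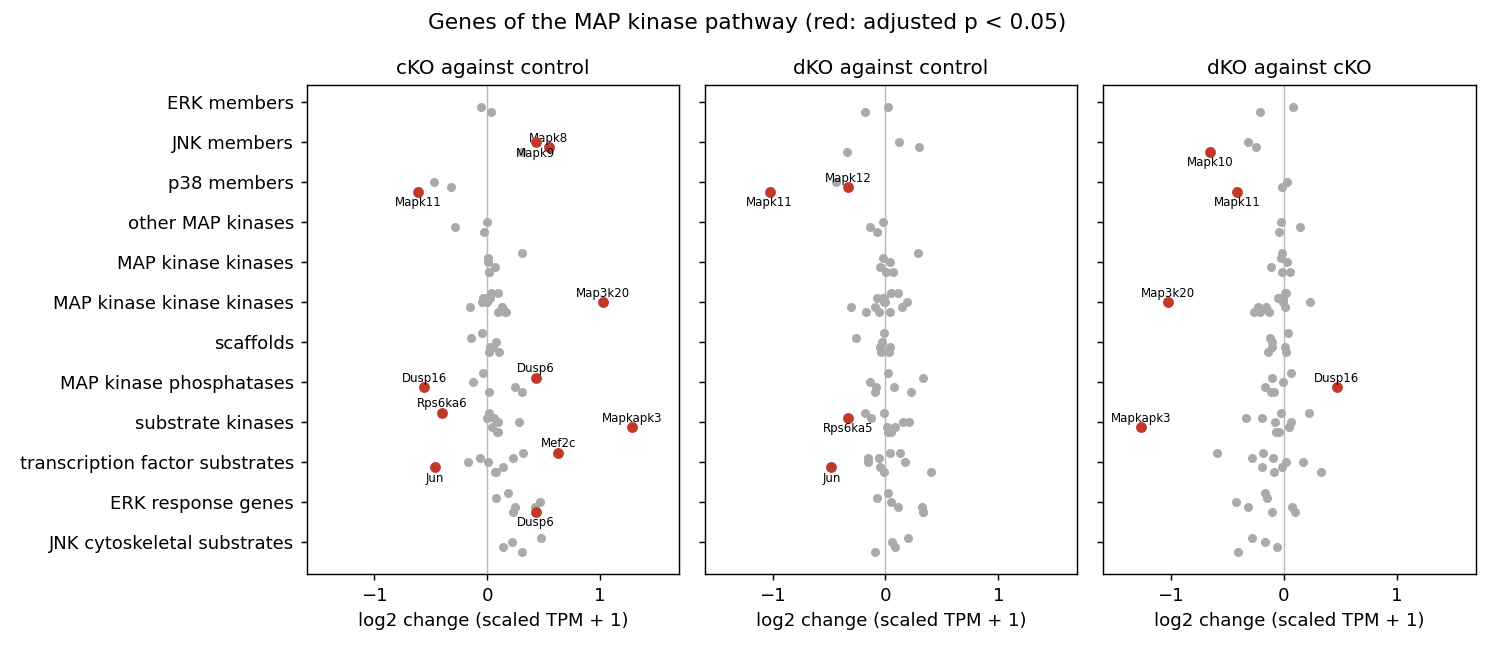
Change of the tested genes of each pathway list (rows) on the log2(scaled TPM + 1) scale (horizontal axis) in the 3 comparisons. Each point is a gene, red and named where its adjusted p was under 0.05. Map3k20 and Mapkapk3 stand furthest right in cKO against control and furthest left in dKO against cKO, while Mapk11 stands furthest left in dKO against control.

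Marker genes of several cell types also differed between the groups. The summed scaled TPM of 7 microglia markers was 12 to 14 in control, 38.7 to 54.8 in cKO and 14.2 to 20.6 in dKO, and 6 of the 7 were called higher in cKO. None of the 7 was at 0 in every library. Microglia do not descend from Emx1 progenitors, and the part they have in the values of Mapkapk3, Map3k20, Mef2c or the MAP kinase genes was not tested. The sum of 10 p53 targets ran from 64.9 to 70.2 in control, 144 to 155 in cKO and 51.0 to 63.4 in dKO, and all 9 that were tested were called higher in cKO and lower in dKO than in cKO. Markers of dividing cells summed to 575 to 691 in control, 429 to 506 in cKO and 435 to 575 in dKO. The cKO sums lay apart from control, as did Mapk11, and 2 of the 8 markers (Top2a and Pcna) were called lower in cKO. Between the mutants Mapk11 was lower in dKO, while these sums overlapped, with a mean of 459 in cKO and 514 in dKO. Intermediate progenitor markers also lay lower in cKO (30.5 to 34.1) than in control (38.8 to 48.3), with 34.2 to 40.2 in dKO, and 3 of 5 were called lower in cKO (Eomes, Neurog1 and Neurog2). The sums of radial glia markers overlapped between control and cKO (270 to 289 and 268 to 292), while 2 of the 8 (Sox2 and Hes5) were called lower in cKO. The part of these cells in the Mapk11 values was not tested. Vessel markers summed to 10.6 to 12.1 in control, 16.9 to 18.3 in cKO and 12.9 to 20.8 in dKO, and 3 of 5 tested were called higher in cKO. Cajal-Retzius markers summed to 15.6 to 25.5, 28.2 to 40.4 and 20.9 to 30.4 in the same order, and 1 of 3 tested was called higher in cKO. Their part in the values of Mapk8 and Mapk9 was not tested. None of the 8 radial glia markers had a mean under 1 TPM, and 6 of 7 markers of ventral interneurons had a mean under 1 TPM.

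Across the 12 libraries the genes most like 7 of the MAP kinase genes were found by Pearson's r of log2 scaled TPM, given as a description, since the libraries share their groups and scaling. Nearest to Mapk12 were Osgep (r = 0.944) and Rhobtb3 (0.936), and nearest to Mapk14 were Foxp4 (0.947) and Mn1 (0.926). Amn1 (0.945) and Scg2 (0.937) were most like Mapk8, Fam155a (0.960) and Spns2 (0.937) most like Mapk9, and Rock2 (0.961) and Fam149b (0.952) most like Mapk10. For Mapk3 they were Zdhhc16 (0.911) and Zfp125 (0.898), and for Mapk7 Tbc1d10b (0.926) and Trp53rka (0.924). Among the 8 genes themselves, the highest values were between the neighbours Mapk11 and Mapk12 (0.76) and between Mapk8 and Mapk9 (0.74), and the lowest between Mapk9 and Mapk12 (-0.69).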

How the data were processed

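RNA-seq of 12 pallia (4 embryos per genotype) was analysed from the deposited TPM values, 1 table per embryo with 54735 symbols. The unit is inferred from the values, since each table sums to 1000000 and has no header. HISAT2 and mm10 are named in the submitters' processing notes, while the tool that quantified genes, its annotation and its handling of shared reads are not given in the sources used here. Per the labels' protocols the libraries are from total RNA. TPM divides by gene length and by the library's sum, so abundant short RNAs shift all other genes: protein-coding genes made up 14.4% to 20.0% of the sum.

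The deposited TPM was scaled by 1 factor per library (the median ratio to the geometric mean library over 11527 genes) and fitted on the log2(TPM + 1) scale in limma 3.58.1 (R 4.3.3, lmFit and eBayes with an intensity trend, 3 groups in 1 fit). Genes averaging 1 TPM or more (11764) were tested. The limma fit was checked on simulated log2 values. Of 200 genes raised by 1 in cKO, 184 (92%) were called, with 8 false calls. The scaling of the libraries was not part of this check. The changes of Mapk8, Mapk9 and Mapk11 in cKO were smaller than the simulated one. Of the symbols, 54106 are in GENCODE M21. Intron starts were read from its transcripts where an intron's first bases lie in an exon of another transcript. Plots used matplotlib 3.10.9.

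The 8 genes and all lists were chosen with earlier results of these data known. Named genes are the 8 genes, the targeted genes, up to 3 called genes of each pathway list, and the 2 genes most correlated with each MAP kinase gene. A few genes that this rule names are not reported here: those of the pathway lists were left out of the lists' counts and plot, and Mapk11 has no correlated genes given. Alternatives were TPM as deposited, quantile normalization, protein-coding rescaling (equal protein-coding sums), a pseudocount of 0.1, no filter, a minimum of 5 TPM on the mean, sample weights, 2 groups only, a block for the replicate number, no intensity trend, and leaving out each embryo. For shares an alternative on the log2 scale was used. The planned comparison of proteins was not done.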

Additional observations from a re-analysis of the deposited data

Results flagged for a closer look

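Among 24 groups of 4 embryos checked (8 genes in 3 groups), 4 held an embryo whose gap to the nearest other was over 0.829 of the group's range, where chance gives about 1.2. In control, embryo 2 was high for Mapk10 (5.10 TPM, a gap of 0.836 of the range) and embryo 3 was high for Mapk12 (2.42 TPM, 0.914). In dKO, embryo 1 was high for Mapk11 (2.43 TPM, 0.867) and embryo 2 was high for Mapk14 (4.41 TPM, 0.887). The 4 embryos are all different, and Mapk11 in dKO embryo 1 still lay below every cKO embryo.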

How the results depend on the processing

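Of the 8 genes, 3 were called in cKO against control, 1 with a mean of at least 5 TPM (which leaves 2 of the genes) and 5 with sample weights. In dKO against control it was 2, then 1 as deposited, with quantile normalization, protein-coding rescaling, no filter, sample weights or the replicate block, and 0 with at least 5 TPM. In dKO against cKO it was 2, then 5 as deposited, 1 with quantile normalization, no filter, sample weights, 2 groups only or the replicate block, and 0 with at least 5 TPM. Without 1 embryo the counts ranged from 1 to 4, 1 to 2 and 1 to 2. Over all genes, 849 were called in cKO (466 higher, 383 lower), 4163 as deposited (4035 higher, 128 lower), 1539 with protein-coding rescaling, 398 with at least 5 TPM, 2020 with sample weights and 550 with the replicate block. In dKO, 1059 were called (465 higher, 594 lower), 610 as deposited (210 higher, 400 lower), 543 with at least 5 TPM, 517 with 2 groups and 646 with the block. Between the mutants, 816 were called (320 higher, 496 lower), 4636 as deposited (72 higher, 4564 lower), 346 with at least 5 TPM, 441 with 2 groups and 458 with the block. Without 1 embryo they ranged from 501 to 1142, 593 to 1187 and 256 to 888. The cause was not tested. Same-numbered embryos did not deviate together (correlations -0.0970 to 0.0793 over 12 pairs, beside -0.161 to 0.141 over 36 other pairs). The labels do not say what the numbers stand for, and these correlations cannot tell whether such embryos share a litter.

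Changes that turned direction were not called with either sign. Mapk7 turned in cKO to 0.22 as deposited and 0.0815 with protein-coding rescaling, in dKO to -0.16 with sample weights, and between the mutants to -0.22, -0.0168 and -0.0391 under the same settings in that order. Between the mutants Mapk12 turned to 0.0536 with quantile normalization and 0.00734 with sample weights, Mapk14 to -0.21 as deposited, -0.0506 with protein-coding rescaling and -0.0579 with sample weights, and the log2 share of Mapk3 to -0.00823. Without 1 embryo, log2 changes ranged from -0.00797 to 0.0809 for Mapk3 in cKO, -0.15 to 0.0306, -0.0866 to 0.15 and -0.0335 to 0.21 for Mapk7 in the 3 comparisons, and -0.0593 to 0.0435 for Mapk12 and -0.18 to 0.12 for Mapk14 between the mutants. Shares ranged from -0.26 to 1.26 points for Mapk10 in cKO, -0.80 to 1.01 for Mapk7 in dKO, -0.30 to 0.81 for Mapk3 and -0.99 to 0.75 for Mapk8 between the mutants, and 0 of 24 shares passed under any of these. TPM holds no depth, so the counting error of the low genes is not known.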
